A study of Homo sapiens with 4 samples.

Results

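The nuclear genes for proteins of the mitochondrial ribosome were followed in KYSE170 cells, an established line of human oesophageal squamous cell carcinoma, with and without ethyl-3,4-dihydroxybenzoate (EDHB). Members were the protein-coding genes whose symbol is MRPL or MRPS followed by a number. The reference table held 77 such genes, and 75 of them had a probe set annotated to exactly 1 gene, out of 19751 genes measured that way. MRPL53 and MRPS24 were represented only by probe sets shared with another gene and were not measured, and the antisense RNA MRPL20-AS1 and the pseudogene MRPL45P2 were left out. Of the 75 measured members, 48 carry an MRPL symbol and 27 an MRPS symbol. All cultures were grown in RPMI medium with foetal serum and antibiotics. In 1 group the cells were left untreated (2 arrays), and in the other they received 50 µg/ml EDHB for 12 h (2 arrays). The labels mention no vehicle for the untreated cells, and they do not say whether arrays of a group came from separate cultures, so the p-values measure only the spread between these arrays, which may be technical. EDHB is a cell-permeable ester that inhibits iron- and 2-oxoglutarate-dependent dioxygenases, among them the prolyl hydroxylases that mark hypoxia-inducible factors for destruction.

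Mitochondria translate the few proteins encoded by their own DNA on ribosomes that differ from those of the cytosol. The RNA of these ribosomes is made in the organelle, but every protein of them is encoded in the nucleus, translated in the cytosol and imported. Some descend from proteins of the bacterial ribosome and keep the bacterial number, while others were added during mitochondrial evolution, and loss of several of them causes inherited deficiencies of oxidative phosphorylation.

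RNA was measured on Affymetrix arrays as RMA intensity (a background-corrected, normalised and summarised probe signal), given here as log2. Array medians lay between 23.3 and 23.5 on the linear scale. The columns of untreated replicate 2 and EDHB replicate 2 stood in another row order than their probe set names. The order was restored by alignment for 54459 of 54613 probe sets. Values of the untreated arrays were matched, within lists of values at least 2-fold higher, at least 2-fold lower or neither. The EDHB values entered through these lists. The correlation of the EDHB arrays across probe sets, which share 1 platform and 1 normalisation, was 0.418 before and 0.997 after. Matching by untreated level brings similar EDHB levels together, so this value says little about the differences. The correlation of log2 differences between the replicates, across probe sets, was 0.044 before and 0.376 after. All 140 probe sets of the members were restored, each with a posterior of 1.0. Of 10 squamous epithelial markers 7 were measured, and 6 of these lay above the median probe set (4.55). In untreated cells the 6 read 12.80 (SFN), 10.84 (CDH1), 8.88 (SOX2), 8.51 (PKP1), 6.43 (KRT5) and 5.89 (DSG3). The basal keratin KRT14 was below that median at 3.75. Of 16 measured markers of fibroblasts, endothelium and blood cells, 5 lay above that median, the highest being COL1A1 at 6.43. Measurements on whole cultures cannot tell fewer cells of a type from less RNA per cell.

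Transcripts of the mitochondrial ribosome stood lower after EDHB, by a small amount spread over most members. The median log2 difference of the 75 members was -0.14, which is 91.0% of the untreated signal, against -0.001 for all genes. Within replicate 1 the median was -0.15, and 69 of the 75 members were lower, where 50.7% of all genes were. Within replicate 2 it was -0.16, and 65 members were lower, where 47.9% of all genes were. On average over the arrays 67 members lay below 0, against 50.5% of all genes. The count was 67 after cyclic loess and 73 after median centring, which also moved the median of all genes, from -0.001 to -0.032. Both EDHB arrays lay below both untreated arrays for 58 members, against 22.5% of all genes and 32.8% of the 4803 genes in the members' own range of intensity (7.92 to 12.16). The opposite order was seen for 1 member, MRPS18A, against 23.2% of all genes, and the groups overlapped for the remaining 16. Differences were lower within both replicates for 60 members, against 31% of all genes.

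No member passed the test across all genes. With limma and Benjamini-Hochberg adjustment over 19751 genes, 2 genes (0.0101%) were called, neither a member, and the smallest adjusted p of a member was 0.126, for MRPL36. At an unadjusted p under 0.05, 26 members were lower, where 7.98% of all genes and 12.4% of those in the members' intensity range were, and 0 members were higher, where 8.81% of all genes were. Fewer members reached that p when any 1 array was left out, and so did fewer of all genes. The median difference of the members was then -0.143 without untreated replicate 1 and -0.178 without untreated replicate 2. It was -0.167 without EDHB replicate 1 and -0.114 without EDHB replicate 2. When the variance was allowed to follow intensity, 5 members were called lower, MRPL36 (adjusted p = 0.0233), MRPS23 and MRPS17 (both 0.038), and MRPL12 and MRPL4 (both 0.0481), against 0.83% of all genes. None of the 5 kept that call in the same fit when any 1 array was left out or the replicate number was a block. When dim probe sets were removed before fitting, 2 members were called lower, MRPL36 (adjusted p = 0.0406) and MRPS23 (0.0484), against 1.3% of the genes then tested. With 2 arrays against 2, the smallest two-sided p of an exact permutation test of a single gene is 0.333.

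**Figure D1:**
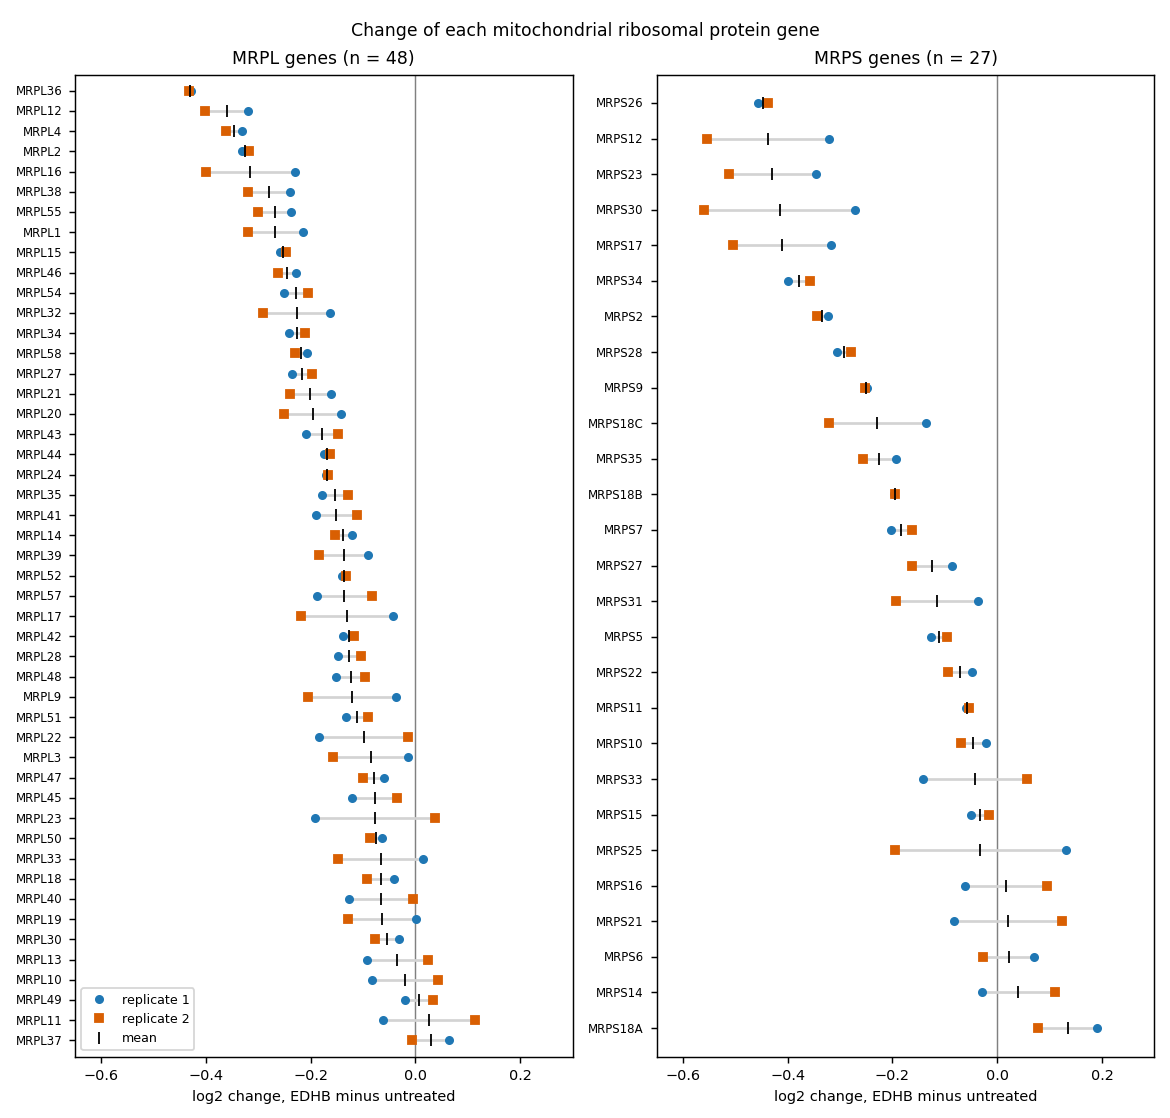
Log2 change (EDHB minus untreated) of each of the 75 members by its brightest probe set, with MRPL genes (n = 48) on the left and MRPS genes (n = 27) on the right, sorted by the mean. Circles are replicate 1, squares replicate 2 and ticks their mean; most members lie left of 0 in both replicates, and the mean runs from -0.45 (MRPS26) to 0.13 (MRPS18A).

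Members of both subunits stood lower. The median difference was -0.14 over the 48 MRPL genes, 45 of them below 0 and 38 without overlap between groups. It was -0.12 over the 27 MRPS genes, 22 of them below 0 and 20 lower without overlap. MRPS30 and MRPS18A carry an MRPS symbol, but their products sit in the large subunit. The other 25 MRPS genes had a median of -0.12, with 21 below 0, 19 lower and 0 higher without overlap. Members that keep a bacterial number (MRPL up to 36 and MRPS up to 21, 44 genes) had a median of -0.13, and the 31 with a higher number, most of which have no bacterial counterpart, had -0.14. The difference between subunits or between these classes was not tested. Across the 75 members, which share the same arrays, the difference within replicate 1 correlated with that within replicate 2 at r = 0.711, against 0.463 across all genes. The members with larger differences in 1 replicate were thus mostly those with larger differences in the other. All genes were dimmer than the members, with a median of 5.60 against 9.92 on untreated replicate 1. Their untreated arrays also lay further apart, by a median of 0.115 against 0.065. This correlation was not compared with that of genes of matched intensity.

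Among proteins of the small subunit, MRPS26, a protein without a bacterial counterpart, had the largest difference. It read 9.36 and 9.17 on the untreated arrays and 8.90 and 8.73 on the EDHB arrays, in the order of the replicates. Both EDHB arrays lay below both untreated arrays, and the mean log2 difference was -0.45 ± 0.11 (SE from limma, n = 2 against 2; adjusted p = 0.168), or 73.4% of the untreated signal. MRPS12, the homologue of bacterial S12 at the decoding centre, read 10.73 and 10.76 untreated and 10.41 and 10.21 with EDHB. The untreated arrays lay close together and the EDHB arrays were 0.32 and 0.55 below their counterparts, so that the size of the difference (-0.44 ± 0.10) differed more between replicates than for MRPS26. MRPS23, a mitochondrial addition to the small subunit, read 9.96 and 10.05 untreated against 9.62 and 9.54 with EDHB, a difference of -0.43 ± 0.08. MRPS17, the homologue of bacterial S17, had 10.99 and 11.08 against 10.67 and 10.57, a difference of -0.41 ± 0.08. In both genes the gap between groups was several times the distance between arrays of a group. MRPS34, which lacks a bacterial counterpart and whose loss causes a deficiency of oxidative phosphorylation, read 9.56 and 9.42 untreated and 9.16 and 9.06 with EDHB (-0.38 ± 0.09). MRPS2, the homologue of bacterial S2, read 9.18 and 9.23 untreated and 8.86 and 8.89 with EDHB (-0.33 ± 0.08). Neither gene overlapped between groups, and the arrays of MRPS2 stood closer within a group than those of MRPS34.

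In the large subunit, MRPL36, the homologue of bacterial L36, had the largest difference and, with MRPL4, the closest arrays among the members at least 0.3 lower. Its probe set read 10.78 and 10.77 on the untreated arrays and 10.35 and 10.33 on the EDHB arrays. Arrays of a group lay within 0.02 of each other, and the difference between groups was -0.43 ± 0.07, or 74.2% of untreated. MRPS30, which has an MRPS symbol but sits in the large subunit, read 10.29 and 10.45 untreated and 10.02 and 9.89 with EDHB (-0.42 ± 0.10, and -0.27 in the replicate 1 pair alone), with a wider spread and no overlap. MRPL12, a protein of the ribosomal stalk that also binds the mitochondrial RNA polymerase, read 9.35 and 9.38 untreated and 9.03 and 8.98 with EDHB (-0.36 ± 0.08). MRPL4 read 9.391 and 9.393 untreated and 9.06 and 9.03 with EDHB (-0.35 ± 0.07). Both had arrays of a group within 0.1 of each other and EDHB arrays clearly apart from the untreated ones. MRPL2, whose bacterial homologue lies near the peptidyl transferase centre, read 8.30 and 8.22 untreated and 7.97 and 7.90 with EDHB (-0.33 ± 0.08). MRPL16 read 9.37 and 9.45 untreated and 9.14 and 9.05 with EDHB (-0.32 ± 0.08). These 12 genes are the members at least 0.3 lower on the log2 scale, and all 12 were lower in both replicates without overlap between groups.

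**Figure D2:**
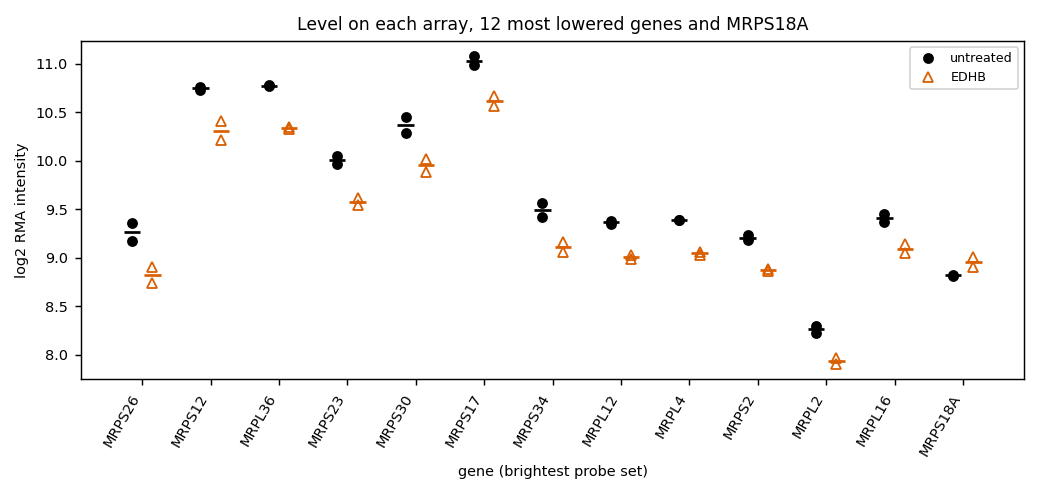
Log2 RMA intensity on each array for the 12 members with the largest differences and for MRPS18A; filled circles are untreated arrays, open triangles EDHB arrays, and bars the group means. For all 12 the triangles lie below the circles, and for MRPS18A they lie above them.

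The stretches just upstream of the start sites of some members are shown as a description of their sequence. A link between sequence and the differences was not tested. Promoter windows (250 bases before to 50 after the start, RefSeq annotation of GRCh38.p14) were found for 67 of the 75 members, the others being MRPL2, MRPL10, MRPL13, MRPL15, MRPL21, MRPL23, MRPL35 and MRPS28. Each window was searched on both strands. The core of the binding motif of ETS factors such as GABP, CCGGAAG, was present in 28 of the 67 members (41.8%), against 14.2% of 15843 windows of protein-coding genes and 10.7% of all 27305 windows. The YY1 motif AAGATGGC was present in 19 members (28.4%), against 3.91% of coding and 3.03% of all windows. The NRF1 motif GCGCATGCG was in 3 members (4.48%), against 2.76% of coding windows. The E-box CACGTG was in 8.96% of members and 8.88% of coding windows, and ACGTG, the core of the hypoxia response element, which also lies inside CACGTG, in 28.4% of members and 23.7% of coding windows. GGGCGG, the letters of an SP1 site, was in 59.7% and 58.5%, and CCAAT, those of an NF-Y site, in 29.9% and 36.4%. A match is a description of the letters in a window and shows no binding.

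The 100 bases before the start of 6 members follow, on the gene's own strand. Capitals mark CCGGAAG or AAGATGGC, or their reverse complements CTTCCGG and GCCATCTT, and no other motif. MRPS26, MRPL36, MRPS23 and MRPS34 are the members with the largest differences that have such a motif in this stretch, MRPL52 carries AAGATGGC at 2 places and lies at the median of the members, and MRPS18A is the member that stood higher.
MRPS26, chr20:3045952-3046051, plus strand: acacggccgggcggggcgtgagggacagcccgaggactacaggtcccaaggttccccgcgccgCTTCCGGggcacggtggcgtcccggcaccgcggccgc
MRPL36, chr5:1799838-1799937, minus strand: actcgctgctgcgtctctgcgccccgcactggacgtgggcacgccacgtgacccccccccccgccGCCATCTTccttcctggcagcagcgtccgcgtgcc
MRPS23, chr17:57850045-57850144, minus strand: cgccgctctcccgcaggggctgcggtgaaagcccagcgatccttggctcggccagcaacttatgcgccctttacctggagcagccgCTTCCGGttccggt
MRPS34, chr16:1773135-1773234, minus strand: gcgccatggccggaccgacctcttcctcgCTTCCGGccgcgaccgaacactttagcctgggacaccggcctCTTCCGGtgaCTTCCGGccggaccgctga
MRPL52, chr14:22829787-22829886, plus strand: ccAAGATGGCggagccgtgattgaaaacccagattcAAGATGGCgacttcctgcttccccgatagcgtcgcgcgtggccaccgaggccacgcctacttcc
MRPS18A, chr6:43687792-43687891, minus strand: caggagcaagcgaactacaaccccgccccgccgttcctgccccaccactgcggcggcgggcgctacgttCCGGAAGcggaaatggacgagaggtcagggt

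Either of the ETS and YY1 motifs was present in the windows of 39 of the 67 members (58.2%), against 17.2% of coding windows, and 8 members had both. The median difference was -0.13 over the 39 members with either motif and -0.14 over the 28 with neither. MRPS18A, which stood higher, and MRPS26, which stood lowest, both have the ETS letters close to the start. MRPL12 and MRPL4 have none of these motifs in the last 100 bases before the start.

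A head-to-head neighbour, a protein-coding gene on the other strand whose start lies within 1000 bases upstream, was found for 18 of the 67 members (26.9%), against 10.3% of protein-coding genes. MRPL46 and MRPS11 are such a pair, with starts 320 bases apart, and read -0.25 and -0.06. Over the 15 measured neighbours outside the family the median difference was -0.09, with 10 below 0, 6 lower and 2 higher without overlap, where the shares of all genes were 50.5%, 22.5% and 23.2%. Values ran both ways within pairs. MRPS12 (-0.44) lies 181 bases from SARS2, the mitochondrial seryl-tRNA synthetase, which read 6.67 untreated and 6.47 with EDHB as means, at -0.42 within replicate 1 and 0.02 within replicate 2. MRPS27 (-0.12) lies 133 bases from PTCD2, whose mean went from 8.51 to 7.97 (-0.54 ± 0.09, adjusted p = 0.121 by limma), and MRPS18C (-0.23) lies 175 bases from the helicase gene HELQ (0.15 ± 0.08). These pairs were picked after their values were seen.

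The 3 genes for forms of protein S18 differed in sign. MRPS18A, whose product sits in the large subunit, read 8.81 and 8.83 untreated and 9.002 and 8.90 with EDHB, a difference of 0.13 ± 0.08 (adjusted p = 0.470 by limma). Its EDHB arrays lay above both untreated arrays, but its other probe set, of nearly equal intensity, read -0.02, so the higher signal rests on 1 of 2 probe sets; the mean over both was 0.06, and the brighter one read 0.09 without EDHB replicate 1. MRPS18B, a small-subunit form, read 10.19 and 10.22 untreated and 9.99 and 10.03 with EDHB (-0.20 ± 0.07). MRPS18C, the form in the position of bacterial S18, read 10.90 and 10.92 untreated and 10.77 and 10.60 with EDHB (-0.23 ± 0.09, and -0.14 without EDHB replicate 2 or in the replicate 1 pair alone). The groups did not overlap for any of the 3 genes. Whether MRPS18A differs from the other 2 in its response was not tested.

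Members whose loss is known to cause deficiencies of oxidative phosphorylation, or that have a function besides structure, were spread over the whole range. MRPL58, which releases peptides from stalled ribosomes, read 9.26 and 9.28 untreated and 9.05 on both EDHB arrays (-0.22 ± 0.07). MRPS7, the homologue of bacterial S7, read 10.17 and 10.10 against 9.96 and 9.94 (-0.18 ± 0.08). MRPL44, which has a ribonuclease III-like fold, read 9.13 and 9.11 against 8.96 and 8.94 (-0.17 ± 0.07). All 3 were lower in both replicates, by about the same amount in each, and the mean over the probe sets of MRPL44 was -0.11. MRPL41, known to bind BCL2, read 10.42 and 10.38 untreated and 10.23 and 10.27 with EDHB (-0.15 ± 0.07). MRPS22, a disease gene without a bacterial counterpart, read 9.93 and 9.98 untreated and 9.88 and 9.89 with EDHB (-0.07 ± 0.07). By this probe set the difference was close to the spread between the untreated arrays. The other probe sets of MRPS22, of nearly equal intensity, read -0.14, -0.12 and -0.11, each lower without overlap. MRPS14, the homologue of bacterial S14, read 9.77 and 9.68 untreated and 9.74 and 9.79 with EDHB (0.04 ± 0.08), and its groups overlapped.

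The 4 members with the smallest differences were MRPL49, MRPS16, MRPL10 and MRPS21. MRPL49 read 10.61 and 10.52 untreated and 10.59 and 10.56 with EDHB. MRPS16, the homologue of bacterial S16, read 9.28 and 9.15 untreated and 9.22 and 9.24 with EDHB. For MRPL10, the homologue of the L10 stalk base, the values were 9.38 and 9.28 against 9.30 and 9.32, and for MRPS21 they were 10.46 and 10.36 against 10.38 and 10.49. All 4 overlapped between groups and took opposite signs in the replicates, with mean differences from -0.02 to 0.02 and SEs of 0.08 or 0.09. The signs of MRPL49, MRPS16 and MRPS21 turned with median centring, so no direction can be read for them.

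The 4 members with the most intense probe sets had small differences, but MRPS17 and MRPL36, among the 12 brightest, had large ones. MRPL3, the homologue of bacterial L3, read 12.18 and 12.24 untreated and 12.17 and 12.08 with EDHB (-0.09 ± 0.08). MRPL47, related to bacterial L29, read 11.99 and 11.93 against 11.93 and 11.83 (-0.08 ± 0.08), and MRPL51 read 11.90 and 11.84 against 11.77 and 11.75 (-0.11 ± 0.08). MRPS15, the homologue of bacterial S15, read 11.81 and 11.77 against 11.76 and 11.75 (-0.03 ± 0.07). All 4 were lower within both replicates, and none by more than 0.16. Among the dimmest, MRPL38 read 8.12 and 7.9997 untreated and 7.88 and 7.68 with EDHB (-0.28 ± 0.10), MRPL55 read 8.08 and 8.05 against 7.85 and 7.75 (-0.27 ± 0.08), and MRPL48 read 8.27 and 8.09 against 8.12 and 7.99 (-0.12 ± 0.10). MRPL38 read -0.18 without EDHB replicate 2. The other probe set of MRPL55 read -0.01, with opposite signs in the replicates, and the mean over both was -0.14. MRPL48 read -0.03 when untreated replicate 1 was left out and -0.21 when untreated replicate 2 was, and the left-out EDHB replicates gave -0.19 (replicate 1) and -0.06 (replicate 2). MRPL2, the other of the 4 dimmest, is given above. Only MRPL48 among these 4 overlapped between groups. Intensities of different probe sets are not on 1 scale of RNA amount, and how far the response of a bright probe set to RNA amount is compressed was not tested.

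The other members are given by range, named after their values were seen. A further 15 lay between -0.20 and -0.29, of which MRPL38, MRPL55, MRPS18C and MRPL58 are described above and the others were MRPS28, MRPL1, MRPL15, MRPS9, MRPL46, MRPL54, MRPL32, MRPL34, MRPS35, MRPL27 and MRPL21. MRPL15 had the closest arrays of these, with 11.13 on both untreated and 10.88 on both EDHB arrays (-0.25 ± 0.07). Between -0.10 and -0.20 lay MRPL20, MRPL43, MRPL24, MRPL35, MRPL14, MRPL39, MRPL52, MRPL57, MRPL17, MRPL42, MRPL28, MRPS27, MRPL9, MRPS31 and MRPS5, beside those described, and every one of them was lower within both replicates. The 26 members within 0.1 of 0 held, beside those described, MRPL22, MRPL45, MRPL23, MRPL50, MRPL33, MRPL18, MRPL40, MRPL19, MRPS11, MRPL30, MRPS10, MRPS33, MRPL13, MRPS25, MRPS6, MRPL11 and MRPL37. All 14 members whose replicates differed in sign were in this last set. MRPS25 had the widest disagreement of them, with 0.13 within replicate 1 and -0.20 within replicate 2. This rests on its brightest probe set, while its dimmer ones read -0.47 and -0.24, each lower within both replicates without overlap.

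Several probe sets were available for 37 members. Over all 140 probe sets, 127 were below 0, and the median was -0.15, against -0.006 over the 40964 restored probe sets with 1 gene. Of the 140, 100 were lower without overlap, against 9246 of the 40964. Of the 31 members with several probe sets above the median intensity, 26 had all of those below 0, and 5 (MRPL30, MRPS14, MRPS15, MRPS16 and MRPS18A) had them in opposite directions, each with at least 1 value within 0.05 of 0. The median over these 31 members was -0.13 by the brightest probe set and -0.21 by the median of each member's others. Of the 31 members, 19 had the lower value in the others. Across the 31 members both values correlated at r = 0.617; they share arrays and sometimes transcripts. In MRPS12, 4 probe sets read -0.44, -0.62, -0.54 and -0.21 from the brightest to the dimmest. In MRPL35, picked after its values were seen, the 3 probe sets read -0.15, -0.38 and -0.58 in the same order. The order was the opposite in MRPS30 (-0.42, -0.35 and -0.29) and MRPS23 (-0.43 and -0.36).

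**Figure D3:**
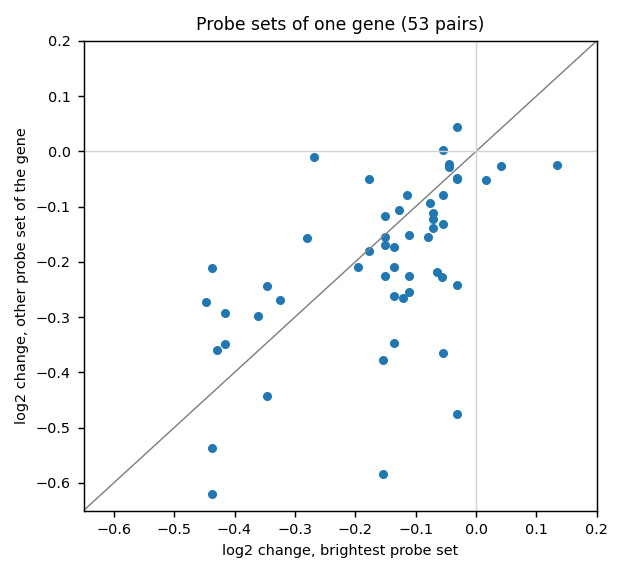
Mean log2 change of the brightest probe set of a member (horizontal axis) against that of each of its other probe sets above the median intensity (vertical axis), 53 pairs, with the line of equality. Of the other probe sets 51 lie below 0, and they run from -0.62 to 0.04.

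The nuclear genes of the cytosolic ribosome and of the respiratory chain, some of whose core subunits the mitochondrial ribosome makes, had medians close to 0. Of all genes, 22.5% were lower and 23.2% higher without overlap, and 7.98% were lower and 8.81% higher at an unadjusted p under 0.05 by limma. The 61 cytosolic ribosomal protein genes had a median of 0.01, with 8 lower and 16 higher without overlap, and 1 at an unadjusted p under 0.05 and lower. The 76 nuclear respiratory chain subunits had a median of 0.02, with 11 lower and 17 higher without overlap and 0 at an unadjusted p under 0.05. In both lists the replicates differed in sign. The cytosolic median was -0.01 within replicate 1 (38 of 61 genes below 0) and 0.03 within replicate 2 (15 below 0). The respiratory chain median was -0.03 within replicate 1 (51 of 76 below 0) and 0.06 within replicate 2 (16 below 0). The shares of genes lower without overlap were 77.3% of the mitochondrial ribosomal proteins, 13.1% of the cytosolic ribosomal proteins and 14.5% of the respiratory chain subunits. Cytosolic ribosomal protein genes read a median of 12.96 on untreated replicate 1 and respiratory chain genes 11.07, both brighter than the 9.92 of the members. No test of the difference between lists was made, since the genes of a list are not replicates.

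**Figure D4:**
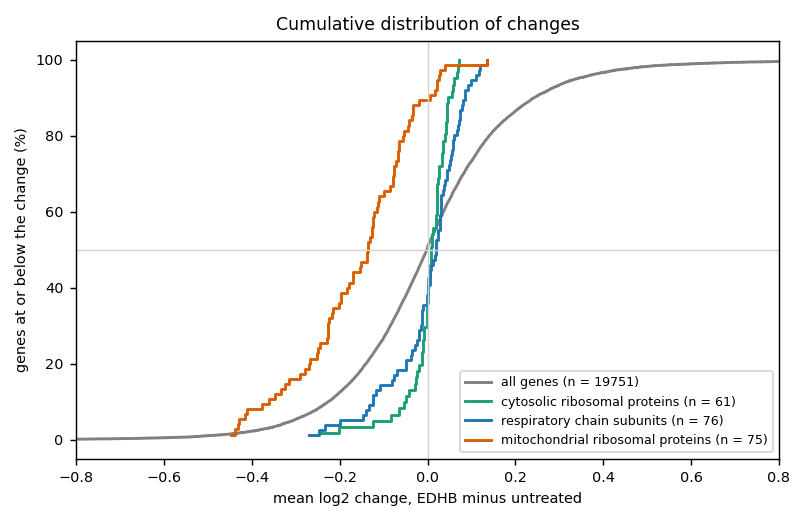
Cumulative share of genes (vertical axis, percent) at or below a given mean log2 change (horizontal axis) for all 19751 genes, 61 cytosolic ribosomal proteins, 76 respiratory chain subunits and the 75 members. The curve of the members crosses 50% at -0.14 while the other 3 cross close to 0.

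Counts of genes in the lists that follow stand beside the shares of all genes given above, 22.5% lower and 23.2% higher without overlap, and 7.98% lower and 8.81% higher at an unadjusted p under 0.05. Mitoribosomal proteins that carry other symbols also lay below 0. Of 5 listed, 4 were measured, all below 0, and 3 were lower without overlap, with a median of -0.18. PTCD3 read 9.22 and 9.37 untreated and 8.94 and 8.91 with EDHB (-0.37 ± 0.09), and CHCHD1 read 10.36 and 10.39 against 10.16 and 10.19 (-0.20 ± 0.07). GADD45GIP1 overlapped between groups, at 8.83 and 8.57 against 8.65 and 8.44 (-0.16 ± 0.13). Its value was -0.10 by the mean over probe sets, -0.03 without untreated replicate 1, -0.28 without untreated replicate 2, -0.26 without EDHB replicate 1 and -0.05 without EDHB replicate 2.

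Genes that assemble the mitochondrial ribosome or modify its RNA had a median of -0.16 over 27 genes, with 22 lower and 2 higher without overlap. At an unadjusted p under 0.05, 9 were lower and 1 was higher. MRM1 and MRM3 encode methyltransferases and RPUSD4 a pseudouridine synthase of the large ribosomal RNA. MRM1 read 6.45 and 6.60 untreated and 6.12 and 5.90 with EDHB (-0.52 ± 0.11, and -0.33 in the replicate 1 pair alone). RPUSD4 read 8.46 and 8.43 against 7.98 and 7.93 (-0.49 ± 0.07, adjusted p = 0.116 by limma and 0.0366 with the intensity trend). MRM3 read 8.22 and 8.18 against 7.88 and 7.77 (-0.38 ± 0.08). None of the 3 genes overlapped between groups.

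The 16 measured of 18 mitochondrial translation factors had a median of -0.13, with 11 lower and 0 higher without overlap. At an unadjusted p under 0.05 there were 2 (12.5%), near the 12.4% of genes in the members' intensity range. The elongation factor gene GFM1 read 9.90 and 10.23 untreated and 9.84 and 9.75 with EDHB (-0.27 ± 0.13), at -0.06 within replicate 1 and -0.48 within replicate 2. It was -0.44 without untreated replicate 1 and -0.10 without untreated replicate 2. TACO1, a translational activator of cytochrome oxidase subunit I, read 8.19 on both untreated arrays and 7.97 and 7.93 with EDHB (-0.25 ± 0.07). The ribosome recycling factor gene MRRF read 9.07 and 9.03 against 8.89 and 8.78 (-0.21 ± 0.08).

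Genes for the upkeep and transcription of mitochondrial DNA had a median of -0.18 over the 18 measured of 19, with 13 lower and 1 higher without overlap and 8 at an unadjusted p under 0.05 and lower. The helicase gene TWNK read 8.25 and 8.19 untreated and 7.75 and 7.60 with EDHB (-0.54 ± 0.09, adjusted p = 0.124 by limma and 0.0421 with the intensity trend). PNPT1, which degrades mitochondrial RNA, read 10.67 and 10.78 against 10.42 and 10.25 (-0.39 ± 0.10, and -0.25 in the replicate 1 pair alone), and POLRMT, the mitochondrial RNA polymerase, read 7.63 and 7.65 against 7.33 and 7.25 (-0.35 ± 0.08), but -0.05 by the mean over its probe sets. All 3 were lower in both replicates without overlap.

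Regulators of mitochondrial biogenesis had the lowest median of the lists, -0.29 over 8 genes, with 6 lower and 1 higher without overlap and 5 at an unadjusted p under 0.05 and lower. NRF1, a transcription factor of nuclear genes for mitochondrial proteins, read 6.21 and 6.16 untreated and 5.56 and 5.52 with EDHB, at -0.65 and -0.64 within the replicates (-0.65 ± 0.08, adjusted p = 0.0901 by limma and 0.0366 with the intensity trend). The mean over its probe sets was -0.27 (adjusted p = 0.215). The coactivator genes PPRC1 (8.41 and 8.26 against 7.86 and 7.65) and PPARGC1B (6.88 and 6.96 against 6.60 and 6.42) differed by -0.58 ± 0.11 and -0.41 ± 0.10, and the mean over the probe sets of PPARGC1B was -0.24. Among the factors whose motifs were searched, the GABP subunit genes GABPA and GABPB1 read -0.06 ± 0.07 and -0.29 ± 0.08, and YY1 read 0.12 ± 0.09. GABPA and GABPB1 were lower and YY1 higher, each without overlap between groups. No gene of these 5 lists was called by the test across all genes. RNA levels were measured here, and protein levels and binding of these factors were not.

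**Figure D5:**
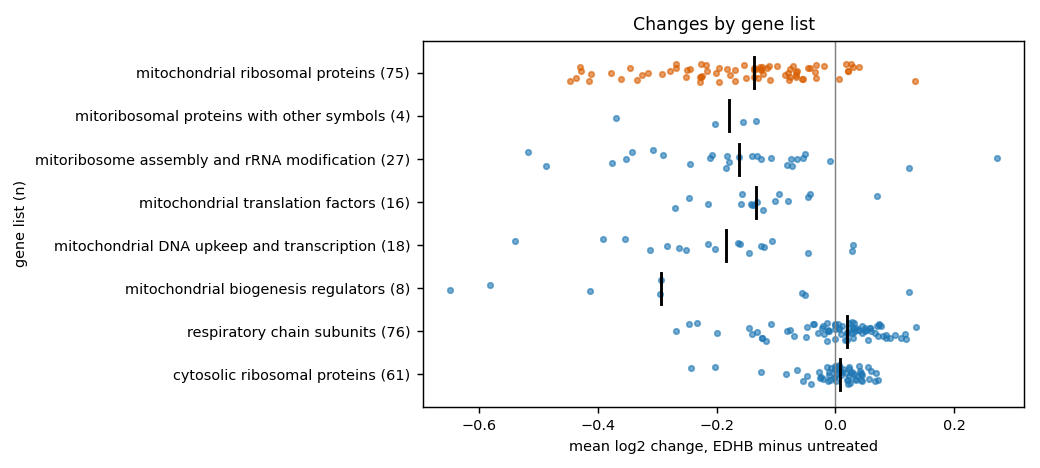
Mean log2 change (horizontal axis) of every measured gene in 8 lists (vertical axis, n in brackets); points are genes, spread vertically for legibility, and bars are list medians. Medians of the members and of the 5 other lists of mitochondrial gene expression and biogenesis lie between -0.29 and -0.13, and those of the respiratory chain and the cytosolic ribosome at 0.02 and 0.01.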

How the data were processed

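RNA of KYSE170 cells was measured on 4 Affymetrix arrays (2 untreated, 2 EDHB). The authors deposited linear RMA intensity values per probe set, per the submitters' processing notes; software, version and build are not given in the sources used here. The fold-sorted layout of the deposited table had replicate 2 values in another row order. Rows were realigned by a forward-backward algorithm on the untreated arrays, within the 2-fold lists of that layout (Student density, scale 0.15, 3 degrees of freedom). They were kept at a posterior of at least 0.95, with 154 probe sets left out. Of the replicate 2 values in the 2-fold lists (148 higher and 45 lower), 113 were restored. Strongly changed probe sets are therefore under-represented in the counts and shares of all genes.

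Values were taken as log2, with no pseudocount. Probe sets with 1 gene in the platform annotation numbered 41091, with several 1801 and with none 11721, and each gene was represented by its brightest probe set. EDHB was compared with untreated by the moderated linear model of limma 3.58.1 under R 4.3.3 (2 residual and 2.99 prior degrees of freedom), with a two-sided test and a threshold of 0.05 after Benjamini-Hochberg adjustment. Other steps used Python 3.11.15, numpy 2.4.6, pandas 2.3.3, numba 0.67.0 and matplotlib 3.10.9. The number of arrays limits the precision.

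Members and lists were chosen with earlier results of these data known. Genes were named by rule: the 12 largest differences with 1 sign in both replicates, the 4 smallest, the 4 brightest and 4 dimmest, members with a known role, members with opposing probe sets, and 3 genes per context list; exceptions are marked. The comparator sets of cytosolic ribosomal proteins and respiratory chain subunits were described in the same way.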

Additional observations from a re-analysis of the deposited data

How the results depend on the processing

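The count of genes called over all genes was the least stable value. It was 2 (2 higher, 0 lower) as reported, 38 with the mean over the probe sets of a gene, 0 with every probe set on its own, 375 with the intensity trend (211 higher, 164 lower), 56 with median centring (35 higher, 21 lower), 43 with cyclic loess (31 higher, 12 lower), 426 without dim probe sets (265 higher, 161 lower), 0 with the replicate block, 0 with a posterior minimum of 0.5, and 0 to 0 when each array was left out in turn. Members called were 0 as reported, 5 with the intensity trend, 2 without dim probe sets, and, in settings chosen after seeing the data, 16 with the trend and median centring and 14 with the trend and cyclic loess, all lower, against 0 with the trend and the replicate block and 0 to 0 with the trend and each array left out. The trend with median centring called 456 genes higher and 531 lower, and with cyclic loess 571 and 455.

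The median difference of the members was -0.136 as reported, -0.162 with the mean over probe sets and -0.151 with every probe set. With median centring it was -0.168, where the median of all genes was -0.032. It ran from -0.178 to -0.114 when an array was left out and stayed below 0 in every setting run. Members at an unadjusted p under 0.05 and lower numbered 26, 24 with the replicate block, 42 of 140 with every probe set on its own, and 8 to 16 when an array was left out. Members lower without overlap numbered 58, and 60 to 66 when an array was left out. With every probe set on its own the count was 100 of 140, against 9246 of 40964 over all. With 2 arrays against 1 such order is easier to reach: the count over all 19751 genes went from 4452 to between 6800 and 7361, and members higher without overlap from 1 to between 3 and 9. Replicate numbers were used as a block only here, since the labels do not say what they pair; deviations of same-numbered arrays correlated at 0.215.

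Of 48 named genes, 5 turned sign in some setting, all with differences near 0. MRPL49 read -0.024 with median centring, -0.020 with the replicate 1 pair, and -0.035 to 0.048 when an array was left out. MRPS16 read -0.018 with the mean over probe sets, -0.014 with median centring, -0.061 with the replicate 1 pair, and -0.048 to 0.082 when an array was left out. MRPS21 read -0.010 with median centring, -0.083 with the replicate 1 pair, and -0.032 to 0.074 when an array was left out. MRPS14 read -0.030 with the replicate 1 pair and -0.0022 to 0.083 when an array was left out, and MRPL10 -0.072 to 0.032 when an array was left out. The causes were not tested.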
